A study of Homo sapiens with 2 samples.

Results

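The NF-kB system is described here through 10 genes. Of these, 5 encode subunits of the transcription factor (NFKB1, NFKB2, REL, RELA and RELB). The other 5 are grouped here as inhibitors (NFKBIA, NFKBIE, NFKBIZ, TNFAIP3 and TNIP1), although NFKBIZ also acts with NF-kB at some target genes. All 10 genes were chosen by name, through the probe sets of the array whose annotation names 1 of them and no other gene. This gave 19 probe sets for 10 of the 18392 genes named on the array. Every one of the 10 genes had at least 1 probe set. The question of the study was what fluphenazine does to castration-resistant prostate cancer cells; the drug is an antipsychotic of the phenothiazine class and a dopamine receptor blocker. The study used PC3, a human line from a bone metastasis of prostate cancer, with 1 array of cells given 10 µM fluphenazine and 1 array of cells given the solvent DMSO. Cells of both groups were kept in the same serum-containing medium, and the sources used here do not give the length of the treatment.

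Each treatment was read on 1 array, so the spread between cultures is unknown, the differences below have no standard error and no p-value, and each is a difference between these 2 arrays. All values are log2 signals as deposited, and a difference is the fluphenazine value minus the DMSO value. Signals of different probe sets were not ranked against each other, since each probe set has its own brightness. A signal floor was set at 6.19, the median over all genes of the higher of the 2 array values, and a probe set was above it when its own higher value was at least as large. Counts used a size threshold of 0.32 on the log2 scale, at which a signal is 25% higher or 20% lower with fluphenazine. Among the 14668 probe sets above this floor, the differences had a median of -0.01 and a robust SD of 0.15. All 24 poly-A spike-in probe sets, for bacterial RNAs added before labelling, had a negative difference, with a median of -0.22. The values below were not rescaled to these spike-ins, which would raise every difference. What the spike-ins mean for the differences of any gene was not tested. Probe sets of one gene differed among themselves with a pooled SD of 0.13 over 3668 genes, a measure of noise within the arrays that leaves out the variation between cultures. The labelled cell type was checked on markers of PC3 and of prostate epithelium, of which all 7 measured ones were above the floor, with KRT8 at -0.42 and VIM at -0.48 and the other 5 inside the size threshold, and on blood, endothelial and fibroblast markers, of which 6 of 8 measured ones were under it, all but PECAM1 and COL1A1.

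NF-kB is a family of transcription factors that act as dimers of Rel-domain proteins. In resting cells, inhibitory IkB proteins hold the dimers in the cytoplasm. Signals from receptors for tumour necrosis factor, interleukin 1 or bacterial products activate the IkB kinase, the IkB protein is degraded and the dimer enters the nucleus. Several of its target genes encode its own subunits and inhibitors, so that the signal feeds back on itself. Prostate cancer cells without androgen receptor signalling, PC3 among them, are known for constitutive NF-kB activity.

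Promoter sequences of these genes are shown because several of the genes are known targets of NF-kB, and the stretches printed hold the letters that NF-kB dimers are known to bind. RefSeq promoter windows (build GRCh38.p14), each reaching from 250 bases before to 50 bases after an annotated gene start, were available for 8 of the 10 genes, 14 windows in all. RELB and NFKBIE had none. The kB consensus, a motif of 10 bases, was searched on both strands. It occurred in the windows of 7 of the 8 genes, against 7.09% of all 27305 genes with such a window, and in 9 of the 14 windows, against 5.91% of all 35116 windows. The form GGGNNTTTCC was picked after these promoters had been read, and its 9 matches are all also matches to the consensus. It occurred in the same 7 genes, against 2.33% of all genes. Because of how the form was picked, that contrast carries no weight. No match was found for either motif in the 2 windows of RELA. In the sequences below, which run 5′ to 3′ along the gene's own strand, the capitals mark the matches to the second form on either strand.
NFKB1, chr4:102501290-102501339, plus strand: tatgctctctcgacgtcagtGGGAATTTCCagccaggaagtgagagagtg
NFKBIZ, chr3:101827747-101827796, plus strand: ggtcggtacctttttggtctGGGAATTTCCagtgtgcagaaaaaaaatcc
REL, chr2:60881508-60881557, plus strand: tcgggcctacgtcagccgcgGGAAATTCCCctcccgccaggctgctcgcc
NFKBIA, chr14:35404801-35404850, minus strand: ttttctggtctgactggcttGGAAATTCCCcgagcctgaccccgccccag
TNIP1, chr5:151081047-151081096, minus strand: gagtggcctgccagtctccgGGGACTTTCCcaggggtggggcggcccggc
TNFAIP3, chr6:137867172-137867233, plus strand: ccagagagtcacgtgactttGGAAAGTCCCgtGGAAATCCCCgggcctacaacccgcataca
NFKB2, chr10:102394480-102394529, plus strand: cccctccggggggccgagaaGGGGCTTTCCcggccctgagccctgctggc
NFKB2, chr10:102395664-102395713, plus strand: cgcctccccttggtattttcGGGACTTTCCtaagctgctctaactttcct

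NFKB1 and NFKBIZ carry the same 10 letters, and REL and NFKBIA carry their reverse complement. The first base of the match lies 49 bases before the gene start in NFKB1, 46 in REL, 81 in NFKBIA and 223 in the NFKBIZ window shown. A second NFKBIZ window, at a start further downstream, holds 1 match to the consensus and none to the spelled-out form. TNFAIP3 has 2 matches in a row, beginning 67 and 55 bases before its start. A match is a run of letters and not a measured binding site.

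On the arrays as deposited, not rescaled to the spike-ins, the subunits and inhibitors differed little between fluphenazine and DMSO. Of the 19 probe sets, 12 were above the signal floor, and all 12 were above it on both arrays. None of these 12 was higher with fluphenazine by the size threshold, where 2.87% of all probe sets above the floor were. Only 1 of the 12, a probe set of NFKBIZ, was lower by it, where 2.97% of all probe sets were, so neither count stands out from the background. The difference was above 0 for 9 of the 12, against 47.2% of all probe sets above the floor. The 12 differences had a median of 0.11 and ran from -0.45 to 0.32, and none reached 1.5-fold. After centring each array on its median or its 75th percentile, or after quantile normalization, NFKBIE passed the threshold, and the counts were then 1 higher and 1 lower.

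**Figure D1:**
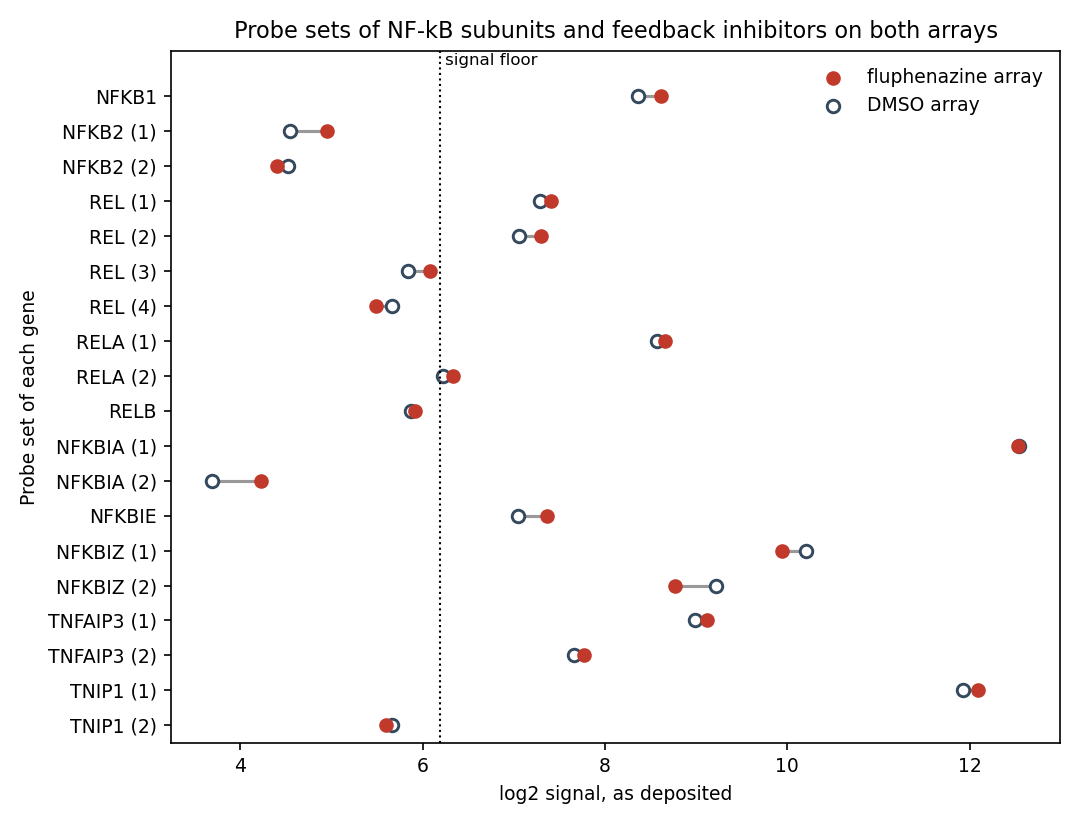
Each row is a probe set of an NF-kB subunit or inhibitor, numbered from the highest mean signal down within a gene; the filled point is its log2 signal on the fluphenazine array, the open point that on the DMSO array, and the dotted line the signal floor of 6.19. In 13 of the 19 rows the filled point lies to the right, while both NFKBIZ rows have it to the left.

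The subunits of the canonical dimers were slightly higher on the fluphenazine array wherever they were above the floor. NFKB1 encodes a precursor that is cut to a DNA-binding subunit without a transactivation domain. Its single probe set (209239_at) read 8.61 with fluphenazine, against 8.36 with DMSO, a difference of 0.25 or 1.19-fold. This was the largest difference among the 5 subunit probe sets above the floor, which ran from 0.09 to 0.25 with a median of 0.11.

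RELA encodes the transactivating partner in the most common dimer. Its first probe set (201783_s_at) read 8.66 with fluphenazine and 8.57 with DMSO. Its second (209878_s_at), just over the floor, read 6.33 with fluphenazine and 6.23 with DMSO. The 2 differences, 0.09 and 0.11, lay within 0.02 of each other, and both were smaller than the noise between probe sets of one gene.

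REL encodes a second transactivating subunit, best known in lymphocytes, and had 4 probe sets. The pair above the floor read 7.40 and 7.30 with fluphenazine, against 7.29 and 7.05 with DMSO. These are differences of 0.11 and 0.24, in the same direction but unequal by 0.13. The pair under the floor went opposite ways, with 6.08 and 5.49 with fluphenazine against 5.84 and 5.67 with DMSO, or 0.24 and -0.17. The 4 probe sets of REL thus spanned 0.42, and 3 of them were higher.

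The subunits of the non-canonical branch, in which NFKB2 is processed and pairs with RELB, were dim on both arrays. RELB had 1 probe set (205205_at), at 5.91 with fluphenazine and 5.87 with DMSO, a difference of 0.04. For NFKB2 the probe sets read 4.95 and 4.40 with fluphenazine, against 4.54 and 4.52 with DMSO. They disagreed, at 0.41 and -0.12, and their mean difference was 0.15. Under the floor, 8.24% of all probe sets were higher by the size threshold and 8.82% lower by it, and the robust SD of the differences was 0.22. Against that background, the 0.41 of 1 NFKB2 probe set beside -0.12 of the other gives no common direction for the gene.

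The 3 IkB proteins went 3 different ways. NFKBIA, the IkB that is resynthesised first after NF-kB activation and is widely used as a readout of it, was nearly level at the probe set above the floor. That probe set (201502_s_at) read 12.53 with fluphenazine and 12.55 with DMSO, a difference of -0.02, which was -0.01 after median centring and 0.00 after centring on the 75th percentile. A second NFKBIA probe set (231699_at) was far under the floor and read 4.22 with fluphenazine and 3.69 with DMSO. Its difference of 0.54 is the largest of the 19. It passes the size threshold, as 8.24% of all probe sets under the floor do upwards. Averaging both probe sets gives 0.26, so the value for NFKBIA depends on whether the dim one is counted.

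NFKBIE, a slower-acting IkB that retains dimers in the cytoplasm, had the largest difference upwards among the 12 probe sets above the floor. Its single probe set (203927_at) read 7.37 with fluphenazine and 7.05 with DMSO. The difference of 0.318 lies just short of the size threshold of 0.322, and it was 0.33 to 0.34 under the 3 other scalings.

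NFKBIZ encodes a nuclear IkB that is induced by interleukin 1 and Toll-like receptor signals and acts with NF-kB at a set of secondary target genes, IL6 among them. Both of its probe sets were above the floor and both were lower with fluphenazine. The first (223218_s_at) read 9.95 with fluphenazine and 10.20 with DMSO, a difference of -0.25 or 1.19-fold lower. The second (223217_s_at) read 8.77 with fluphenazine and 9.22 with DMSO, a difference of -0.45 or 1.36-fold lower. The 2 values were unequal by 0.20, about the gap that 2 probe sets of one gene show from the pooled SD. NFKBIZ was the only 1 of the 10 genes lower at every probe set. The negative differences of the spike-in probe sets concern the whole array and not NFKBIZ alone, and their part in the NFKBIZ values was not tested.

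The pair of genes that act on ubiquitin chains upstream of the IkB kinase were slightly higher. TNFAIP3 encodes an enzyme that edits ubiquitin chains and ends the signal, and is itself induced by NF-kB. Its probe sets read 9.11 and 7.77 with fluphenazine, against 8.99 and 7.66 with DMSO. Both gave a difference of 0.12, or 1.08-fold to 1.09-fold, and they differed from each other by less than 0.01. Like those of RELA, both differences were smaller than the within-gene SD of 0.13. TNIP1 encodes a ubiquitin-binding partner of the TNFAIP3 protein. Its brighter probe set (207196_s_at) read 12.09 with fluphenazine and 11.92 with DMSO, or 0.16, while the other (243423_at), under the floor, read 5.60 with fluphenazine and 5.66 with DMSO, or -0.06.

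**Figure D2:**
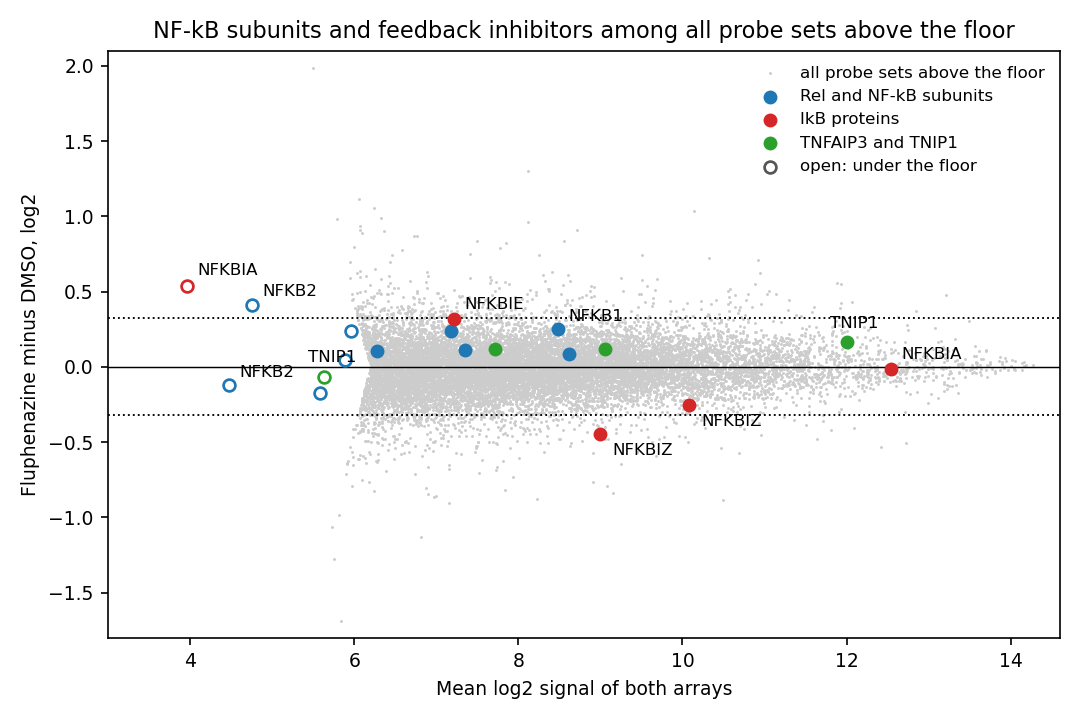
The log2 difference of fluphenazine minus DMSO (vertical) is plotted against the mean log2 signal of both arrays (horizontal); grey points are the 14668 probe sets above the floor, coloured points the 19 probe sets of subunits, IkB proteins, and TNFAIP3 with TNIP1, open when under the floor, and dotted lines mark the size threshold of 0.32. Filled points lie between the lines except for 1 NFKBIZ probe set at -0.45, and the only open points past a line are those of NFKB2 at 0.41 and NFKBIA at 0.54.

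With 1 value for each gene, that of the probe set with the highest mean signal, 8 of the 10 genes were above the floor and NFKB2 and RELB were under it. Of the 8 genes, 6 had a difference above 0, against 48.2% of all 9196 genes above the floor, and the exceptions were NFKBIA and NFKBIZ. None of the 8 passed the size threshold, where 2.69% of all genes did upwards and 2.58% downwards. The median of the 8 genes was 0.12, or 1.08-fold, beside -0.01 for all genes above the floor. Leaving out NFKBIZ it was also 0.12, over 7 genes.

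The match letters can be set beside the gene-level differences. NFKB1 and NFKBIZ share theirs and read 0.25 and -0.25. REL and NFKBIA, which carry the reverse complement of it, read 0.11 and -0.02, a gap no wider than the within-gene SD of 0.13. TNIP1 and TNFAIP3, where a match of one is the reverse complement of a match of the other, read 0.16 and 0.12. NFKB2, whose second printed stretch holds the same letters as TNIP1, was under the floor, with probe sets at 0.41 and -0.12. RELA, with no match in its windows, read 0.09. These are descriptions of 8 genes, with no test.

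The rest of the pathway was read from lists of 91 other genes, ordered by role, of which 80 were measured here and 59 were above the floor. Of these 59 genes, 46 were higher with fluphenazine by any amount, and 12, or 20.3%, were higher by the size threshold, with none lower by it at the probe set that represents the gene. Over all genes above the floor the shares were 48.2%, 2.69% and 2.58%. The median of the 59 genes was 0.17. The lists were drawn up with earlier results of these arrays known, and an excess of higher inflammatory targets had been seen in them before, so the counts are no independent evidence of direction.

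Among ligands, 4 of 8 measured genes were above the floor and all 4 were higher, with a median of 0.18. The interleukin 1 gene IL1A was the only one past the size threshold, at 9.85 with fluphenazine and 9.43 with DMSO, or 0.42, and at 0.06, inside the threshold, with its 2 probe sets averaged. Receptors were above the floor for 6 of 14 genes, 4 of them higher, none past the size threshold. Their median of 0.19 was not stable, at 0.02 with a stricter floor, 0.06 with averaged probe sets and -0.05 without a floor.

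Adaptors, which pass the signal from receptors to kinases, had 10 of 12 measured genes above the floor, 7 of them higher, with a median of 0.18. IRAK2, a kinase-like adaptor of the interleukin 1 receptor, read 11.16 with fluphenazine and 10.74 with DMSO, or 0.42. TRAF6, the ubiquitin ligase of the same route, read 6.64 with fluphenazine and 6.16 with DMSO, or 0.48. Its DMSO value is under the floor of 6.19, so it counts as above the floor only through the fluphenazine array. With its 2 probe sets averaged, the difference of TRAF6 was 0.17. No adaptor was lower by the size threshold.

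Kinases had 9 of 12 genes above the floor, 7 of them higher, with a median of only 0.03, or 0.19 with the stricter floor. IKBKB, the catalytic subunit of the IkB kinase that is needed for the canonical route, was the only one past the size threshold. It read 6.56 with fluphenazine and 6.23 with DMSO, the latter just over the floor. Its difference of 0.327 lies just past the threshold of 0.322, and was 0.18 with its 3 probe sets averaged. Enzymes and adaptors of ubiquitin chains had 11 of 12 measured genes above the floor, 9 of them higher, with a median of 0.14. CYLD, a deubiquitinase that restrains the pathway, read 8.02 with fluphenazine and 7.50 with DMSO, or 0.52. Its 3 probe sets above the floor agreed in direction, from 0.17 to 0.69, and the mean over all 7 was 0.27. Of other IkB proteins only NFKBIB was above the floor, at 0.01.

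**Figure D3:**
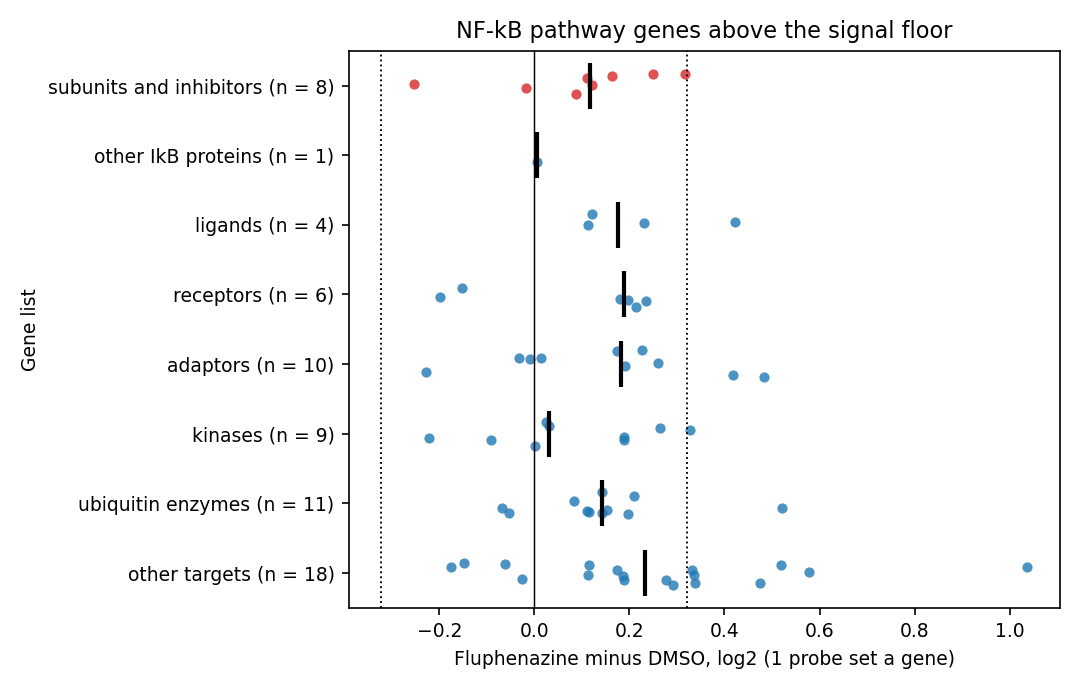
Each point is a gene above the signal floor, placed by its log2 difference of fluphenazine minus DMSO at the probe set with the highest mean signal; rows are gene lists, black bars their medians, and dotted lines mark the size threshold of 0.32. The 8 subunit and inhibitor genes lie between -0.25 and 0.32, and the list of other targets reaches 1.04.

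The other NF-kB targets, genes for secreted, adhesion and survival proteins, held most of the larger values. Of 18 genes above the floor 14 were higher and 7 were higher by the size threshold, with a median of 0.23. IL6, the inflammatory cytokine, has a single probe set, which read 10.66 with fluphenazine and 9.62 with DMSO, or 1.04. CXCL2 and CXCL8, which attract neutrophils, were at 0.58 and 0.48, and the survival gene BCL2A1, with a single probe set, at 0.52. With averaged probe sets CXCL2 was at 0.29, inside the threshold, and CXCL8 at 0.36. CXCL3 and CXCL6, chemokines of the same family, were at -0.15 and -0.18. CXCL5, another of them, was at -0.03 at the probe set that represents it, but its second probe set above the floor was at -0.84, past the threshold downwards. CFLAR, at 0.11, ran from -0.37 to 0.25 over its 9 probe sets above the floor, so its lowest was also past the threshold downwards. On the same arrays, the 8 subunit and inhibitor genes above the floor ran from -0.25 to 0.32 at the gene level. Whether the 2 groups of genes differ was not tested.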

How the data were processed

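Total RNA of PC3 cells was column-purified and biotin-labelled, per the labels' protocols. The labels name a whole-transcript labelling kit, whereas the probe sets are those of an array read near the 3' ends of transcripts; how they were joined is not stated, and its effect on the signals was not tested. The authors deposited a log2 signal for each probe set on each array, a scale judged from the values, which run from 1.60 to 14.28. Per the submitters' processing notes, the tools were RMA, Transcriptome Analysis Console 3.1 and Affymetrix Expression Console 1.4, with no role stated. Such values show a gene relative to the others on its array, not total RNA. Sorted, the columns differed by at most 0.13.

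Of 47693 probe sets, the platform annotation of 2016 gave 37151 exactly 1 gene; the 1668 with several genes were not used. Symbols were updated by gene identifier for 18354 genes. Genes were represented by their probe set with the highest mean. No test was possible with 1 array a group, and the number of arrays limits the precision. The text names all 10 genes and, of each other list, the genes past the size threshold of 0.32, at most 4 each way. KRT8, VIM, PECAM1, COL1A1, NFKBIB, CFLAR, CXCL3, CXCL5 and CXCL6 were named outside this rule, after their values were seen. The genes, lists, threshold and alternatives were chosen with earlier results of these data known. Counting was tested on simulated data. Python 3.11.15, numpy 2.4.6, pandas 2.3.3, and limma 3.58.1 in R 4.3.3 were used. The sources used here name no genome build for the array annotation. 11 listed genes were not analysed here.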

Additional observations from a re-analysis of the deposited data

How the results depend on the processing

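No paired analysis was possible because each group has 1 array. No probe set names a subunit or inhibitor gene together with another gene, so the alternative that adds such probe sets could not be run. The number of probe sets above the floor and higher by the size threshold, 0 as reported, was 1 after median centring, 1 after centring on the 75th percentile and 1 after quantile normalization, since NFKBIE lies at the threshold, and 2 without a floor, where the dim probe sets of NFKB2 and NFKBIA enter. The number lower by the threshold, 1 as reported, was 0 at 1.5-fold and 0 at 2-fold, and 1 under the other 7 alternatives. The median of the subunit and inhibitor genes ran from 0.10 to 0.14 over 8 alternatives, and that of the other pathway genes from 0.11 to 0.20 over 7. Of 40 values of single genes under the other scalings and with averaged probe sets, 38 moved by less than the within-gene SD of 0.13. The exceptions were NFKB2 at 0.15 and NFKBIA at 0.26, both with averaged probe sets. Most of the 40 had little room to move, so the count says little about stability. Centring shifts all genes by a common amount, and the sorted columns differed by at most 0.13 before quantile normalization. Averaging leaves NFKB1, RELB and NFKBIE, with a single probe set each, unchanged. Background correction was not varied.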
